A study of Rattus norvegicus with 64 samples.

Results

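The liver of the rat devotes a large part of its messenger RNA to a small number of transcripts, and this account is about 99 of them: transcripts that were abundant in liver, scarce in kidney, and close to their vehicle level after bromobenzene. They were chosen from the deposited values. A transcript was taken when its mean level over the 8 livers of 10 h vehicle rats was at least 500 TPM (a relative transcript level, corrected for transcript length, that adds up to the same total in every library) and at least 16 times its mean over the 8 kidneys of the same condition. Transcripts whose mean log2(TPM + 0.5) in liver differed by 0.4 or more between bromobenzene and vehicle, at 5 h or at 10 h, were left out. Of 31715 transcripts, 279 reached 500 TPM, 119 of those also met the kidney criterion, and 20 of the 119 were left out for their change (2 at 5 h only, 10 at 10 h only and 8 at both times), which leaves 99. The 10 h liver level, the 10 h vehicle ratio of liver to kidney and the liver responses to bromobenzene are therefore properties of the choice, and they are described here without tests.

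The samples were liver and kidney of Sprague Dawley rats that received bromobenzene once, at 0.4 g/kg, or a saline vehicle, and were sampled 5 h or 10 h afterwards. Each tissue, time and agent had 8 libraries, 64 in all, from 32 rats. All groups were of the same strain, and no genotype, age or sex is given in the labels. Libraries are numbered within a group by the order of their records, a number that names a library. The kidney records repeat the time and agent of the liver records in the same order, in 32 of 32, but no label ties a liver to a kidney of one rat, and record order was not taken as a pairing. The labels' protocol mentions cultured cells; the tissue named in each record was relied on instead.

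Hepatocytes, the main cell type of the liver, make most plasma proteins and carry much of the enzyme equipment of intermediary metabolism, and transcripts for such proteins are known to dominate liver RNA. Bromobenzene is a classical liver toxicant: cytochrome P450 enzymes in hepatocytes oxidise it to reactive epoxides, which are detoxified by conjugation with glutathione. The tables name transcripts by Ensembl identifiers alone and none could be matched to a gene name here, so the transcripts are given by identifier, with no name, role or sequence. For the same reason the tissue labels could not be checked against named marker genes. Each of the 99 transcripts was higher in every liver library than in every kidney library of the same time and agent, in all 4 conditions; as the transcripts were chosen by their ratio of liver to kidney, this describes them and is no check of the labels.

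Sequencing depth, as the sum of estimated counts, was between 13789055 and 28308155 in the liver libraries and between 16981846 and 24118479 in the kidney libraries. All 224 pairs of libraries within a group differed by more than counting noise (the chi-square divided by its degrees of freedom was at least 10.3), and none was treated as a repeat of another. One kidney library, number 4 of the 5 h vehicle group, stood apart from the other kidneys in these transcripts, and number 1 of the 5 h bromobenzene group did so to a smaller degree. Results that rest on either are given with and without it. In whole tissue, fewer cells of a type and less RNA per cell cannot be told apart.

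The 99 transcripts are 0.312% of those in the tables. In 10 h vehicle livers they ranged from 527 to 62429 TPM with a median of 1309 TPM. The weight lay in very few of them: 10 were above 10000 TPM, 52 lay between 1000 and 10000 TPM, and 37 were below 1000 TPM. The 10 most abundant held 54.5% of the summed level of the 99, and the first alone held 17.2%.

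**Figure D1:**
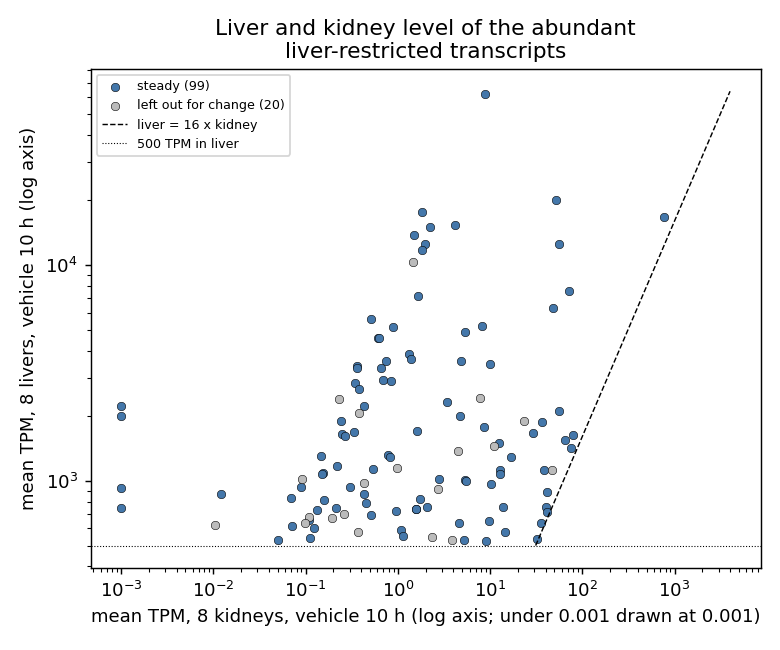
Mean TPM in 8 livers (vertical, log axis) against mean TPM in 8 kidneys (horizontal, log axis, values under 0.001 drawn at 0.001) of 10 h vehicle rats, for the 99 steady transcripts and the 20 left out for their change. The dashed line marks a liver level of 16 times the kidney level and the dotted line 500 TPM; the steady transcripts reach from 527 to 62429 TPM in liver.

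The most abundant was ENSRNOT00000003921.4, 2069 bases long. In 5 h vehicle livers it ranged from 52746 to 73166 TPM with a median of 64812 TPM, and in 5 h bromobenzene livers from 47756 to 76343 TPM with a median of 67024 TPM. In 10 h vehicle livers it ranged from 53939 to 69821 TPM with a median of 62232 TPM, and after bromobenzene for 10 h from 50622 to 73483 TPM with a median of 55919 TPM. The 4 groups overlapped throughout, and the mean shift after bromobenzene was 0.01 at 5 h and -0.07 at 10 h on the log2 scale. This one transcript made up 6.24% of all TPM in 10 h vehicle livers.

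The second, ENSRNOT00000045628.5, was held within much narrower bounds. Its level in 10 h vehicle livers ran from 18516 to 21610 TPM with a median of 20143 TPM. After bromobenzene for 10 h it ran from 16202 to 18168 TPM with a median of 17520 TPM. Every 10 h bromobenzene liver was below every 10 h vehicle liver, a difference of -0.22 in mean log2(TPM + 0.5). At 5 h the groups overlapped, with 17855 to 21775 TPM in vehicle and 15726 to 21854 TPM in bromobenzene livers. A transcript can thus meet the limit of 0.4 and still separate the groups when its spread is small.

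At the edges of the rule the values run on without a gap. The lowest liver level among the 99 was that of ENSRNOT00000083672.1, at 527 TPM, and the nearest transcript below the floor had 495 TPM. The lowest ratio to kidney was 16.6, in ENSRNOT00000000514.6, and the nearest outside was 15.5. The largest shift at 5 h among the 99 was 0.389, in ENSRNOT00000087017.1, against 0.428 for the nearest transcript left out, and the largest in size at 10 h was 0.374, in ENSRNOT00000012293.4, against 0.404.

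Summed over the 99 transcripts, the share of TPM was 37.1% ± 1.45 (SD, n = 8) in 5 h vehicle livers and 37.01% ± 0.79 (SD, n = 8) in 5 h bromobenzene livers. At 10 h it was 36.3% ± 1.13 (SD, n = 8) in vehicle livers and 34.2% ± 1.11 (SD, n = 8) in bromobenzene livers. The 10 h vehicle libraries lay between 35.3% and 38.9% and the 10 h bromobenzene libraries between 33.02% and 35.6%, so that the groups met only at their edges. The 5 h groups overlapped, with 34.3% to 38.6% in vehicle and 35.7% to 38.2% in bromobenzene livers.

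The 10 h difference in mean share was -2.16 percentage points, and at 5 h it was -0.106 points. At 10 h, 64 of the 99 transcripts had a lower share after bromobenzene and 35 a higher one. The 5 largest decreases added up to -1.46 points, against an increase of 0.325 points from the 5 largest increases. The largest single decrease, -0.395 points, came from ENSRNOT00000022113.4, and ENSRNOT00000003921.4 gave -0.285 points. TPM is a share of a fixed sum, so a lower share of these transcripts and a higher share of others cannot be told apart.

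**Figure D2:**
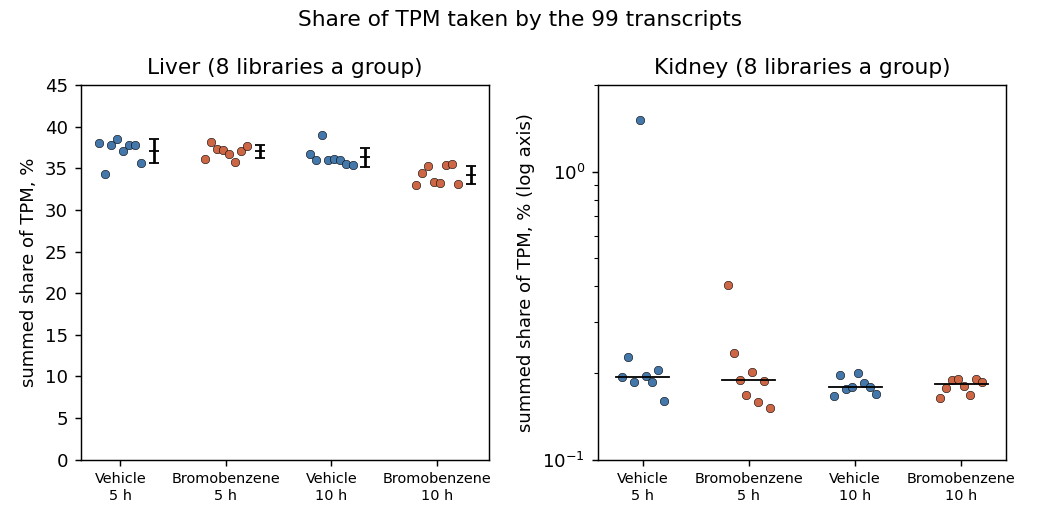
Summed share of TPM (percent) of the 99 transcripts in each of the 64 libraries, by condition, with liver on a linear axis from 0 (bars beside the points: mean and SD) and kidney on a log axis (lines: medians). The liver groups average 37.1%, 37.01%, 36.3% and 34.2% from left to right, and kidney library 4 of the 5 h vehicle group sits at 1.52%, above the other kidneys.

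The shifts after bromobenzene were small by construction, and their sign and order are given here as a description. At 5 h the median shift of the 99 was -0.01 in mean log2(TPM + 0.5), with 44 transcripts positive and 55 negative, and 62 lay within 0.1 of 0. At 10 h the median was -0.06, with 33 positive and 66 negative, and 42 lay within 0.1. Over all 13877 transcripts at 1 TPM or more the medians were -0.05 at 5 h and 0.05 at 10 h. Taken relative to those medians, 60 of the 99 stood above and 39 below at 5 h, and 19 stood above and 80 below at 10 h.

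The scale of measurement moved the split at 5 h. On log2 CPM (estimated counts scaled per library, here with TMM, the trimmed mean of M-values), the median of the 99 was 0.03 at 5 h with 62 positive and 37 negative, and -0.13 at 10 h with 17 positive and 82 negative. The direction at 5 h therefore depended on the scaling, while at 10 h more transcripts were negative than positive on both scales. Another 142 transcripts that also reached 500 TPM and met the same limit of 0.4, but were less than 16 times their kidney level, had medians of 0.00 at 5 h and -0.03 at 10 h on the TPM scale. At 10 h 88 of the 142 were negative and 54 positive. Of all 279 transcripts at 500 TPM or more, which include the 99, 174 were negative and 105 positive. More negative than positive shifts at 10 h were thus also counted in other abundant transcripts. All these sets were chosen by a floor on the level in 10 h vehicle livers, which is subtracted in the 10 h shift. The counts are therefore not independent of the choice, and the 142 and the 279 were not counted on the CPM scale.

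Set against the spread between livers, most shifts were small. At 5 h the shift was larger than the pooled SD of the groups compared in 9 of the 99 transcripts, 5 positive and 4 negative. At 10 h this held for 23 transcripts, 4 positive and 19 negative. These counts were not made for other abundant transcripts, so whether they are particular to the 99 is not known. The typical shift was 0.267 SD at 5 h and 0.473 SD at 10 h. Both shifts were within 0.1 in 29 transcripts.

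Of the 10 most abundant transcripts, 8 were negative at 10 h, with a median shift of -0.15, beside a median of -0.05 for the other 89, a difference that was not tested. Over wider classes of level there was no order: the median shift at 10 h was -0.05 in the 37 transcripts under 1000 TPM, -0.11 in the 35 from 1000 to 3000 TPM and -0.05 in the 27 above. ENSRNOT00000022113.4, 701 bases long, had one of the largest negative shifts at 10 h, -0.37. It ran from 15178 to 19437 TPM with a median of 17632 TPM in 10 h vehicle livers. In 10 h bromobenzene livers it ran from 10819 to 16074 TPM with a median of 13385 TPM. The groups overlapped at their edges only. At 5 h its shift was 0.07.

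ENSRNOT00000012293.4 had the other largest negative shift, also -0.37, but with a far wider spread. It ran from 959 to 3237 TPM with a median of 2085 TPM in 10 h vehicle livers and from 1079 to 3033 TPM with a median of 1665 TPM in 10 h bromobenzene livers. Those groups overlapped over almost their whole range.

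The largest positive shifts at 10 h were in ENSRNOT00000047139.3, at 0.36, and ENSRNOT00000021653.7, at 0.35. The first ran from 968 to 1506 TPM with a median of 1007 TPM in 10 h vehicle livers and from 864 to 2491 TPM with a median of 1461 TPM in 10 h bromobenzene livers. The second ran from 498 to 975 TPM with a median of 712 TPM in vehicle livers and from 480 to 1788 TPM with a median of 958 TPM in bromobenzene livers. In both, the bromobenzene livers covered the vehicle range and extended above it.

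Holding steady at each time did not mean holding the same shift. In 41 transcripts both shifts were negative and in 19 both were positive, while 25 went from positive to negative and 14 from negative to positive. In 11 transcripts the shifts at the 2 times differed by 0.4 or more, 8 towards lower and 3 towards higher values at 10 h, with differences from -0.66 to 0.66. ENSRNOT00000087017.1 was among them: its shift was 0.39 at 5 h and -0.22 at 10 h. Its median was 3414 TPM in vehicle and 4291 TPM in bromobenzene livers at 5 h, and 3325 TPM against 2878 TPM at 10 h.

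**Figure D3:**
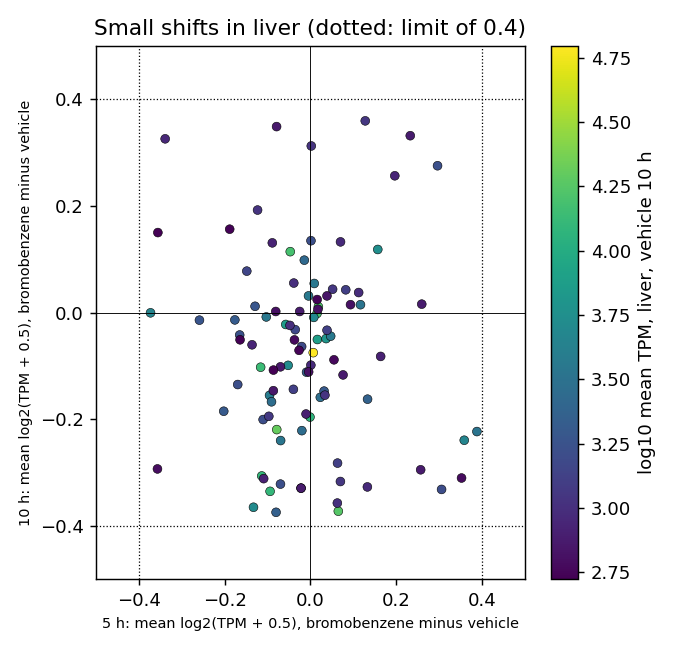
Shift in liver after bromobenzene, as the difference in mean log2(TPM + 0.5) from vehicle, at 5 h (horizontal) and 10 h (vertical) for each of the 99 transcripts, coloured by log10 of the mean TPM in 10 h vehicle livers. Dotted lines mark the limit of 0.4; 41 points are negative at both times and 25 are positive at 5 h and negative at 10 h.

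Steadiness of the group means did not come with a narrow spread between animals. The SD of log2(TPM + 0.5) over the 8 livers of a group, averaged over the 4 groups, had a median of 0.233 over the 99 transcripts and ran from 0.060 to 0.650. In the 142 steady transcripts that were not restricted to liver the median was 0.170, and in all 279 transcripts at 500 TPM or more it was 0.199; these differences were not tested. The median SD of the 99 was 0.233 in 5 h vehicle livers, 0.277 in 5 h bromobenzene livers, 0.202 in 10 h vehicle livers and 0.232 in 10 h bromobenzene livers. The SD was higher after bromobenzene in 68 of the 99 transcripts at 5 h, and in as many at 10 h. This count was not made for other transcripts. The median SD of the 142 was also higher after bromobenzene, at 0.182 against 0.140 at 5 h and 0.196 against 0.136 at 10 h, so a higher SD was not particular to the 99.

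The lowest estimated count of any of the 99 in a liver library was 165, at which counting alone gives an SD of 0.112, and the median over transcripts of the lowest count was 15318. Only 4 transcripts fell below 1000 counts in any liver. The error from dividing shared reads among transcripts was not measured. The shortest, ENSRNOT00000071798.2, was 87 bases long with an effective length of 10.7 to 13.9 bases, so that its TPM rests on a median of 440 counts and on the length correction.

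At one end were 19 transcripts with a mean SD under 0.15. The narrowest was ENSRNOT00000012577.6, 1380 bases long, with a mean SD of 0.060. It ran from 14357 to 17123 TPM with a median of 15356 TPM in 5 h vehicle livers and from 14621 to 16367 TPM with a median of 15783 TPM in 5 h bromobenzene livers. At 10 h it ran from 14048 to 15774 TPM with a median of 15098 TPM in vehicle livers and from 14156 to 16044 TPM with a median of 14921 TPM in bromobenzene livers. All 32 livers thus lay between 14048 and 17123 TPM.

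The next narrowest, ENSRNOT00000009248.4, had a mean SD of 0.066. Its medians were 5127 TPM in 5 h vehicle, 4997 TPM in 5 h bromobenzene, 5254 TPM in 10 h vehicle and 4799 TPM in 10 h bromobenzene livers. Its widest group was the last, from 4447 to 5485 TPM.

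At the other end were 20 transcripts with a mean SD of 0.4 or more. ENSRNOT00000010454.4, 1020 bases long, had the widest spread, with a mean SD of 0.650. It ran from 767 to 4000 TPM with a median of 1132 TPM in 5 h vehicle livers, and from 510 to 3504 TPM with a median of 1229 TPM in 5 h bromobenzene livers. At 10 h it ran from 802 to 1388 TPM with a median of 1075 TPM in vehicle livers, and from 704 to 3229 TPM with a median of 1257 TPM in bromobenzene livers. Single livers set the top of 2 of these groups: library 7 of the 5 h vehicle group, where the next was 1821 TPM, and library 7 of the 10 h bromobenzene group, where the next was 1789 TPM.

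The second widest, ENSRNOT00000041341.3, had a mean SD of 0.645 and differed in form. In 5 h bromobenzene livers it ran from 101 to 578 TPM with a median of 509 TPM. In 10 h vehicle livers it ran from 239 to 796 TPM with a median of 671 TPM. Here the low livers, not the high ones, stood away from the median.

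Spread varied with level, with no steady order. The median of the mean SD was 0.215 in the 37 transcripts under 1000 TPM, 0.340 in the 35 from 1000 to 3000 TPM, and 0.195 in the 27 above. Library 7 of the 5 h vehicle livers was the highest or the lowest of its group for 42 of the 99 transcripts and library 8 for 33. Library 4 of that group was so for 32 and library 6 for 31. In 10 h bromobenzene livers library 7 was so for 46 and library 3 for 45, so such counts were not particular to libraries 7 and 8. Without libraries 7 and 8, the median SD of the 5 h vehicle livers was 0.180, beside 0.131 for the 142 other steady transcripts.

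**Figure D4:**
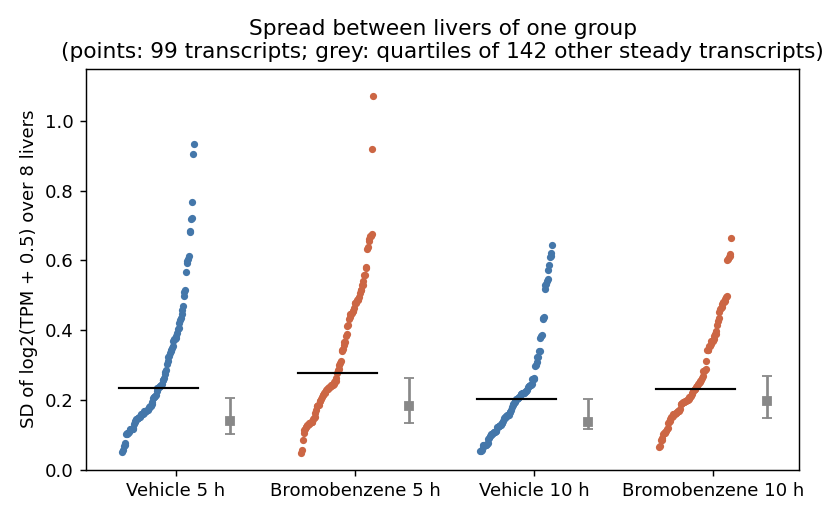
SD of log2(TPM + 0.5) over the 8 livers of each group (vertical), with one point per transcript for the 99 transcripts, sorted within a group, and a line at the median. Grey squares and bars give the median and quartiles of the 142 other steady transcripts; the medians of the 99 are 0.233, 0.277, 0.202 and 0.232 from left to right, each above the grey square.

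Some of the variable transcripts varied together. Of the 43 with a pooled within-group SD of 0.3 or more, 903 pairs can be formed, and the SD of the log2 ratio of a pair had a median of 0.624. In 9 pairs it was under 0.15. The closest were ENSRNOT00000034521.6 and ENSRNOT00000064091.3, which had SDs of 0.370 and 0.379 while their ratio had an SD of 0.061. ENSRNOT00000009813.3 followed ENSRNOT00000034521.6 with a ratio SD of 0.077. These pairs were chosen after their values were seen, their points share libraries, and whether they belong to one gene could not be read from the tables. A further pair, ENSRNOT00000064029.3 and ENSRNOT00000032536.4, both 504 bases long, had equal TPM in all 64 libraries, so that these 2 entries carry a single measurement, and their levels are uncertain because reads they share are divided between them.

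The contrast between 5 h and 10 h in vehicle livers was not itself a criterion, and it was tested. The choice did use values of both groups. The 10 h level entered the floor and the ratio to kidney, and both levels entered the limit on the change after bromobenzene. Neither the counts nor the p-values of the 99 are therefore independent of that choice. The shares over all transcripts stand beside them as a description. All 99 transcripts entered the test, and 3 fell from 5 h to 10 h while 0 rose at an adjusted p under 0.05 (edgeR quasi-likelihood test, Benjamini-Hochberg over all 17535 transcripts). Over all transcripts tested, 4.32% rose and 5% fell. The median log2 difference was 0.00 for the 99 and -0.01 for all. At an unadjusted p under 0.05 there were 12 of the 99, 6 of them higher at 10 h, beside 21.3% of all transcripts tested.

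ENSRNOT00000027260.4, 1030 bases long and named because it passed this test, fell by 0.52 on the log2 scale (SE 0.10, adjusted p = 0.000579 by edgeR). It ran from 1161 to 1494 TPM with a median of 1207 TPM in 5 h vehicle livers and from 775 to 1062 TPM with a median of 866 TPM in 10 h vehicle livers. Every 10 h vehicle liver was below every 5 h vehicle liver. In bromobenzene livers the order was the other way, with medians of 1015 TPM at 5 h and 1101 TPM at 10 h, so that its shift after bromobenzene was -0.34 at 5 h and 0.33 at 10 h.

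ENSRNOT00000076816.1, 1542 bases long, fell by 0.25 (SE 0.07, adjusted p = 0.0178 by edgeR). It ran from 632 to 885 TPM with a median of 750 TPM in 5 h vehicle livers and from 609 to 672 TPM with a median of 632 TPM in 10 h vehicle livers, overlapping at the low end. Its bromobenzene livers had medians of 718 TPM at 5 h and 640 TPM at 10 h. The third transcript fell by 0.38 (SE 0.12, adjusted p = 0.0429 by edgeR), a call that was lost in 15 of 23 alternatives.

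Other settings gave 1 to 7 calls among the 99. DESeq2 called 7, beside 11.1% of all transcripts, and a fit of only the 2 groups called 7, beside 13.9%. With limma on log2(TPM + 1) there were 5 calls, beside 8.31%, and with scaling by library totals alone 5, beside 8.93%. Without library 2 of the 10 h vehicle livers 1 call was left, beside 7.88%, and without library 4 of the 5 h vehicle livers there were 5, beside 8.91%. In bromobenzene livers the time difference is bounded by the choice in part and was not tested. Its median was -0.03, and 12 of the 99 differed by 0.4 or more in mean log2(TPM + 0.5). In vehicle livers 9 of the 99 did so, beside 28 of all 279 transcripts at 500 TPM or more. The count in bromobenzene livers was not made for other transcripts, so whether it is particular to the 99 is not known.

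In kidney these transcripts ranged from traces to a mean of 779 TPM in 10 h vehicle rats, and they fall into different kinds. In 10 h vehicle kidneys 44 of the 99 averaged under 1 TPM, and 3 were listed at 0 in every library. In 54 transcripts the liver level was 1000 times the kidney level or more, in 45 it was less, and in 21 of the 45 it was under 100 times. ENSRNOT00000041891.5 had the highest kidney level. It ran from 627 to 971 TPM with a median of 751 TPM in 10 h vehicle kidneys, beside 15666 to 17817 TPM in the livers, a ratio of 21.4. The kidney range was 660 to 1184 TPM in 5 h vehicle, 562 to 947 TPM in 5 h bromobenzene and 687 to 854 TPM in 10 h bromobenzene kidneys, so that all 4 groups overlapped.

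ENSRNOT00000033918.5 came next, with 69.9 to 97.3 TPM and a median of 78.6 TPM in 10 h vehicle kidneys and a liver ratio of 20.3. By contrast, the most abundant liver transcript, ENSRNOT00000003921.4, had a median of 7.88 TPM in 10 h vehicle kidneys, from 4.25 to 15.1 TPM, and a ratio of 7112. The lowest ratio of all was in ENSRNOT00000000514.6, with 20.96 to 42.9 TPM in 10 h vehicle kidneys.

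In the conditions the ratio criterion did not use, a mean liver level of 16 times the kidney level or more was kept by 98 of the 99 transcripts in 5 h vehicle rats, 95 in 5 h bromobenzene rats and 98 in 10 h bromobenzene rats. The limit on the change held the bromobenzene livers near the vehicle livers of the same time. The 10 h vehicle livers were also the upper side of the ratio criterion, so these counts follow in part from the choice. The number at 1000 times or more was less stable. It was 55 in 10 h bromobenzene rats, 32 in 5 h bromobenzene rats and 0 in 5 h vehicle rats. Without kidney library 4 of the 5 h vehicle group it was 52 in 5 h vehicle rats, and without kidney library 1 of the 5 h bromobenzene group it was 52 in 5 h bromobenzene rats.

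Kidney library 4 of the 5 h vehicle group held 1.52% of its TPM in the 99 transcripts. The other 7 kidneys of its group held 0.193% ± 0.020 (SD, n = 7), from 0.161% to 0.227%. The 10 h kidneys held 0.181% ± 0.012 (SD, n = 8) after vehicle and 0.181% ± 0.010 (SD, n = 8) after bromobenzene. The 54 transcripts at 1000 times or more made up a mean of 0.004% in each of these groups. The 45 others made up 0.177% after vehicle and 0.176% after bromobenzene. Library 1 of the 5 h bromobenzene kidneys held 0.403%, and the other 7 held 0.185% ± 0.029 (SD, n = 7).

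For each kidney library the level of a transcript was set against its mean in the 8 vehicle livers of the same time. Over the 54 transcripts at 1000 times or more, the median was 3.65% of the liver level in library 4 of the 5 h vehicle kidneys and 0.573% in library 1 of the 5 h bromobenzene kidneys. The other kidneys of the 5 h vehicle group had medians from 0.014% to 0.086%, and those of the 5 h bromobenzene group from 0.011% to 0.072%. The 10 h kidneys lay between 0.010% and 0.028% in both groups. The 54 were picked by their low level in the 10 h vehicle kidneys, so the low values of that group follow in part from the choice. In ENSRNOT00000003921.4 this was 2550 TPM in library 4, where the next kidney of the group had 54.5 TPM, and 381 TPM in library 1, where the next had 44.2 TPM.

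In library 4 each of the 99 transcripts was above its mean in the other 7 kidneys of the group, by a median of 3.51% of its mean in 5 h vehicle livers, with quartiles of 3.15% and 3.88% and a range from 1.64% to 6.54%. For 89 of the 99 the excess was within 1.5 times of that median. The 20 transcripts left out for their change had a median excess of 3.34%. In library 1 of the 5 h bromobenzene kidneys the excess was smaller and less even: 93 of the 99 were above the mean of the other 7, by a median of 0.519% of the level in 5 h bromobenzene livers.

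Over the 54 transcripts at 1000 times or more, the excess in library 4 was compared with each of the 32 liver libraries by the SD of its log2 ratio to them. The smallest SD, 0.277, was to library 4 of the 5 h vehicle livers, and the next was 0.288, to library 6 of the 10 h vehicle livers. These values are close to each other. For library 1 of the 5 h bromobenzene kidneys the smallest SD was 0.382, to library 3 of the 10 h vehicle livers. The source of the excess in either library was not tested.

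**Figure D5:**
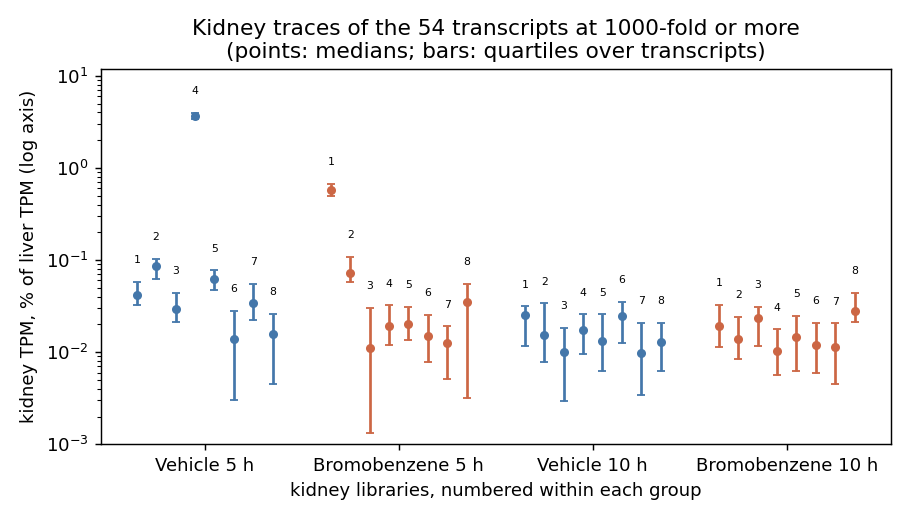
Kidney level as percent of the mean level in vehicle livers of the same time (vertical, log axis) for the 54 transcripts at 1000 times or more, in each of the 32 kidney libraries, numbered within their group. Points are medians and bars quartiles over transcripts; library 4 of the 5 h vehicle group stands at 3.65% and library 1 of the 5 h bromobenzene group at 0.573%, above every other kidney.

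Bromobenzene was compared with vehicle in kidney, where the choice used only the 10 h vehicle mean, as a ceiling. At this depth 79 of the 99 transcripts passed the filter on low counts, which used all 32 kidney libraries, and 20 did not. What follows describes the 79. With the filter on the 2 groups of one time alone, 77 of the 99 passed at 5 h and 63 at 10 h. Some of the 79 were therefore too low in the 10 h kidneys to pass on those libraries alone. At 5 h, 0 of the 79 were called at an adjusted p under 0.05 (edgeR quasi-likelihood test), beside 0.375% of all 20004 transcripts tested, and DESeq2 called 1, as lower, beside 0.72% of all. At an unadjusted p under 0.05 there were 47 of the 79, all lower after bromobenzene, beside 14% of all transcripts tested.

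The size of the difference at 5 h depended on the tool, and its direction on library 4 of the vehicle kidneys. The median log2 difference of the 79 was -1.39 by edgeR, -0.33 by limma on log2(TPM + 1) and -0.25 by DESeq2, beside 0.00 for all transcripts by edgeR. The count of 47 under an unadjusted p of 0.05 was 14 with DESeq2, 5 with a covariate for the run of library numbers and 2 with limma, and with only the 2 groups it was 3 of 77 tested. The covariate splits the kidney records by order into an earlier and a later part, which no label names as batches. Without library 4 the median by edgeR was 0.45, and 17 of the 79 were under an unadjusted p of 0.05, 16 of them higher, beside 13.8% of all transcripts. Without library 4 and also without library 1 of the bromobenzene kidneys the median was -0.19. Without library 1 alone edgeR called 3 of 79 tested, all lower, beside 0.298% of all transcripts, and without library 8 of the vehicle kidneys 1 of 81 tested, also lower, beside 1.48%.

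At 10 h, 0 of the 79 were called, beside 0.625% of all transcripts, and 0 of the 79 were under an unadjusted p of 0.05, beside 10.1% of all. DESeq2 called 0 as well. The median log2 difference was 0.06, with 44 of the 79 positive. These values come from fits of all kidney libraries, so the 5 h libraries that stood apart entered the fits. With edgeR on only the 2 groups of 10 h, 63 transcripts of the set were tested and 0 were called. Of the 63, 4 were under an unadjusted p of 0.05, 2 of them higher, beside 2477 of all 19065 transcripts tested. The median log2 difference of the 63 was 0.08. The difference between the 10 h and 5 h responses was called in 0 of the 79, beside 0.135% of all transcripts. Its median was 1.18, and 0.30 by DESeq2 and 0.35 by limma. It was 0.22, with 58 of the 79 positive, without library 4 of the vehicle and library 1 of the bromobenzene kidneys at 5 h, and -0.53 without library 4 of the vehicle and library 8 of the bromobenzene kidneys. In the fit of all libraries 3 of the 79 were under an unadjusted p of 0.05, beside 9.61% of all, and DESeq2 called 0.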

How the data were processed

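RNA of liver and kidney was measured in 64 libraries of polyadenylated RNA, made with a stranded kit and sequenced as read pairs, per the labels' protocols. Reads were quantified with kallisto 0.42.4, with Rnor_6.0 as the build, per the submitters' processing notes; the annotation release is not given in the sources used here. Each deposited table gives an estimated count for every transcript, unnormalized and not whole, since shared reads are divided among transcripts. The TPM values were deposited by the authors beside them, with the length and effective length. Samples were grouped by the labelled tissue, time and agent. It is not stated which liver and kidney came from one rat.

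The rule was applied to TPM; shares, spreads, shifts and traces were computed from TPM, shifts and spreads as log2(TPM + 0.5). Transcripts and comparisons were chosen with earlier results of these data known. Estimated counts were rounded and tested over all transcripts of a tissue with edgeR 4.0.16 (filterByExpr with a minimum count of 10 and total of 15, TMM, robust quasi-likelihood fit of the 4 groups, Benjamini-Hochberg, threshold 0.05) in R 4.3.3. SEs given for edgeR were derived as the size of the log2 difference over the square root of the F statistic. Alternatives were DESeq2 1.42.0, limma 3.58.1, other scalings, no filter, only the groups compared, a covariate for the run of library numbers, and leaving out each library. That covariate splits the records of a tissue by order into an earlier and a later part, which no label names as batches. The scripts were tested on simulated data, where DESeq2 made more false calls than edgeR and limma. Named transcripts are the 2 of highest level, largest and smallest spread, largest shift each way at 10 h and highest kidney level, those next to each threshold, and 2 that passed the test between times; the pairs named for their likeness were added after their values were seen. Lists of named genes and cell type markers could not be applied, as 0 of 31715 identifiers were matched to a name.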

Additional observations from a re-analysis of the deposited data

Results flagged for a closer look

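Values are given here when one library of a group of 8 lay farther from the rest than Dixon's 95% critical value allows. Chance alone flags about 1 in 20 groups of independent, normally distributed values. The values here were TPM without a log, some transcripts were named for their wide spread, and the groups share libraries. The rate of 1 in 20 is therefore no measure for the count that follows. Over the summed share and 17 named transcripts, 144 groups of values were looked at and 34 exceeded it, 16 of them through library 4 of the 5 h vehicle kidneys and 10 through library 1 of the 5 h bromobenzene kidneys.

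The summed share of TPM stood at 38.9% in library 3 of the 10 h vehicle livers, where the next was 36.7%. It stood at 1.52% in library 4 of the 5 h vehicle kidneys, where the next was 0.227%, and at 0.403% in library 1 of the 5 h bromobenzene kidneys, where the next was 0.236%.

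In kidney, ENSRNOT00000003921.4 had 2550 TPM in library 4 of the 5 h vehicle group and 381 TPM in library 1 of the 5 h bromobenzene group. In the same library 4, ENSRNOT00000045628.5 had 835 TPM, ENSRNOT00000041891.5 had 1184 TPM and ENSRNOT00000033918.5 had 146 TPM. ENSRNOT00000022113.4 had 597 TPM there, where the next was 12.8 TPM, ENSRNOT00000012577.6 had 532 TPM, where the next was 13.8 TPM, and ENSRNOT00000009248.4 had 186 TPM. The others in that library were ENSRNOT00000087017.1 with 125 TPM, ENSRNOT00000012293.4 with 110.1 TPM, ENSRNOT00000027260.4 with 79.7 TPM, ENSRNOT00000076816.1 with 56.4 TPM and ENSRNOT00000010454.4 with 39.5 TPM. ENSRNOT00000083672.1 had 28.9 TPM, ENSRNOT00000021653.7 had 25.7 TPM and ENSRNOT00000041341.3 had 16.9 TPM.

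In library 1 of the 5 h bromobenzene kidneys, ENSRNOT00000022113.4 had 101 TPM, ENSRNOT00000012577.6 had 87.9 TPM, ENSRNOT00000009248.4 had 35.8 TPM and ENSRNOT00000087017.1 had 24.4 TPM. ENSRNOT00000012293.4 had 6.57 TPM, ENSRNOT00000010454.4 had 5.97 TPM, ENSRNOT00000021653.7 had 3.53 TPM and ENSRNOT00000041341.3 had 1.86 TPM. ENSRNOT00000000514.6 had 106 TPM in library 2 of that group. In 10 h vehicle kidneys, ENSRNOT00000041341.3 had 0.324 TPM in library 1, where the next was 0.132 TPM, and ENSRNOT00000083672.1 had 12.7 TPM in library 7.

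In liver, ENSRNOT00000010454.4 had 4000.4 TPM in library 7 of the 5 h vehicle group and 3229 TPM in library 7 of the 10 h bromobenzene group. ENSRNOT00000000514.6 had 1044 TPM in that last library too. ENSRNOT00000027260.4 had 1279 TPM in library 8 of the 5 h bromobenzene livers, where the next was 1045 TPM.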

How the results depend on the processing

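The number of transcripts meeting the rule ran from 62 with a floor of 1000 TPM to 133 with a floor of 300 TPM, and was 99 with other pseudocounts. It was 75 with a limit of 0.3 on the change. With the change taken on log2 CPM with TMM it was 92, of which 91 were among the 99, so not all of the 99 met the limit on that scale. The share of TPM in 10 h vehicle livers was 37.6% as a share of estimated counts and 30.1% without the most abundant transcript; the 10 h difference kept its sign in both. Between times in vehicle livers there were 5 calls among the 99 with library totals alone, 5 with limma, 7 with DESeq2 and 7 with only the groups compared, and 1 to 5 when single libraries were left out. In 5 h kidneys DESeq2 made 1 call, and leaving out single libraries gave 0 to 3. The median log2 difference of the 5 h kidneys turned from -1.39 to 0.45 without library 4 of the vehicle group and to 0.52 without that and library 8 of the bromobenzene group; leaving out single libraries moved it between -1.74 and 0.45. It was -0.33 with limma, -0.25 with DESeq2 and -0.19 without library 4 of the vehicle and library 1 of the bromobenzene group. The median difference between times in kidney, 1.18, turned to -0.53 without vehicle library 4 and bromobenzene library 8, and was 0.22 without vehicle library 4 and bromobenzene library 1, 0.35 with limma and 0.30 with DESeq2. The removal of library 1 of the 5 h bromobenzene kidneys and of livers 7 and 8 was chosen after seeing the data. Median shifts in liver ran from -0.04 to 0.00 at 5 h and from -0.08 to -0.05 at 10 h when single livers were left out. In 10 h kidneys no call was made in any of 23 alternatives. No paired analysis was possible because the groups compared within a tissue are different rats and the labels give them no shared replicate number. Estimated counts of near-identical transcripts are uncertain, and 20 of the 99 were too low in kidney to test in the fit of all 4 groups.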
